A study of Petromyzon marinus with 4 samples.

Results

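The genes described here encode the oxidative phosphorylation machinery, the mitochondrial complexes that pass electrons to oxygen and make ATP. Of 21967 features in the sea lamprey (Petromyzon marinus) tables, 70 were taken by name. The 13 mitochondrial members are ND1 to ND6, ND4L, COX1 to COX3, ATP6, ATP8 and CYTB. The 57 nuclear members are the features whose names start with NDUF, SDH, UQCR, COX4 to COX8 or ATP5. They comprised 34 subunits of complex I, 7 complex I assembly factors (NDUFAF), 3 subunits of complex II (SDHA, SDHC and SDHD), 4 complex II assembly factors (SDHAF) and 9 subunits of complex V, the ATP synthase. No nuclear gene of complex III or IV is listed under such a name, so these 2 complexes were represented among the members by the mitochondrial CYTB and COX1 to COX3 only. A gene table of another source gave symbols to 12 more features listed by a LOC number, which were counted apart from the members. By the start of the symbol alone, 5 were set to complex III, 6, COX7A2L among them, to complex IV, and NDUFC2 to complex I.

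Single-cell 3′ RNA libraries were made by particle-templated capture (PIPseq) from the gonads of wild-caught, wildtype lampreys whose age was unknown. The tissue had been taken apart using a kit made for neurons, and flow sorting had enriched living cells. There were 4 libraries in 3 groups: 2 biological replicates of larvae whose gonad had not yet differentiated (larva 1 and larva 2), and 1 library for each sex of transformer, the female and the male, a transformer being labelled as a lamprey that has metamorphosed and whose sex is determined. How many animals went into each library is not given in the sources used here, and each sex is 1 library, so sex cannot be told apart from library.

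Complex I (NADH dehydrogenase) and complex II (succinate dehydrogenase) feed electrons into the chain, complexes III and IV hand them on to oxygen, and complex V makes ATP from the proton gradient the chain builds. Complexes I, III, IV and V mix subunits from the mitochondrial genome with subunits from nuclear genes, whereas complex II is wholly nuclear. In vertebrates, renal proximal tubule cells are rich in mitochondria, and growing oocytes build up large stores of them. Roles given below for single genes are those known from mammals.

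Barcodes with at least 1875 counts and 250 genes were kept, 19654 and 20592 in the larval pair, 30598 in the female and 40223 in the male, and between any pair of libraries at most 0.063% of them were shared. The libraries held 239024376 to 406358335 counts in all, and the median kept barcode 4714 to 7475. Germ barcodes came in 2 classes. Oocyte-like germ barcodes had at least 5000 CPM (the counts scaled to a total of 1000000) from 5 genes listed by LOC numbers, and panel germ barcodes were not oocyte-like and had at least 500 CPM from an 11-gene germ panel (PIWIL1, SYCP3, MAEL, TDRD1, TDRD9, DMC1 and 5 LOC genes). Tubule-like barcodes had at least 2000 CPM of MIOX, an inositol oxygenase of the renal tubule, and were not germ. Other barcodes were the rest after those with intermediate germ values were set aside. Oocyte-like germ held 254, 285 and 560 barcodes in larval libraries 1 and 2 and the female, and only 26 in the male. Panel germ held 939 (larva 1), 950 (larva 2) and 28544 (male), and only 21 in the female. Tubule-like held 713, 758 and 3766, and 0 in the male. Classes with fewer than 50 barcodes were not used. Of the tubule markers that did not make the class, CUBN, LRP2 and others, 5 of 8 listed were found, and their summed level was 1696 to 1885 CPM in tubule-like barcodes against 30.0 to 311 CPM in other barcodes. Germ markers outside the panel (15 of 26 found) summed to 281 to 464 CPM over the oocyte-like and panel germ classes used and to 123 to 163 CPM in other barcodes. The thresholds cut a range: 101 to 2974 barcodes per library lay near the panel threshold, 720 female barcodes near the MIOX threshold, and 9 to 107 near the oocyte-like one.

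The mitochondrial genes took very different shares of the counts in the 4 classes. In oocyte-like germ barcodes they held 0.352% and 0.336% of the counts in the larval pair and 0.0795% in the female transformer. In panel germ barcodes they held 1.11% and 1.11% in the larval pair and 2.46% in the male transformer. In tubule-like barcodes they held 3.17% and 3.27% in the larval pair and 2.98% in the female. In each of the 3 libraries with oocyte-like germ that class had the lowest share, and the larval pair lay closer to each other than to either transformer in each class. Other barcodes had 1.82% and 1.81% in the larval pair, 1.14% in the female and 1.44% in the male. The share in oocyte-like germ was lower than in other barcodes 5.16-fold and 5.38-fold in the larval pair and 14.3-fold in the female (mean log2 -2.88 ± 0.83 SD, n = 3; two-sided exact sign-flip permutation p = 0.25, the smallest that 3 libraries allow). The share in tubule-like barcodes was higher than in other barcodes 1.75-fold, 1.81-fold and 2.61-fold in the same 3 libraries (exact p = 0.25, again the smallest possible).

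**Figure D1:**
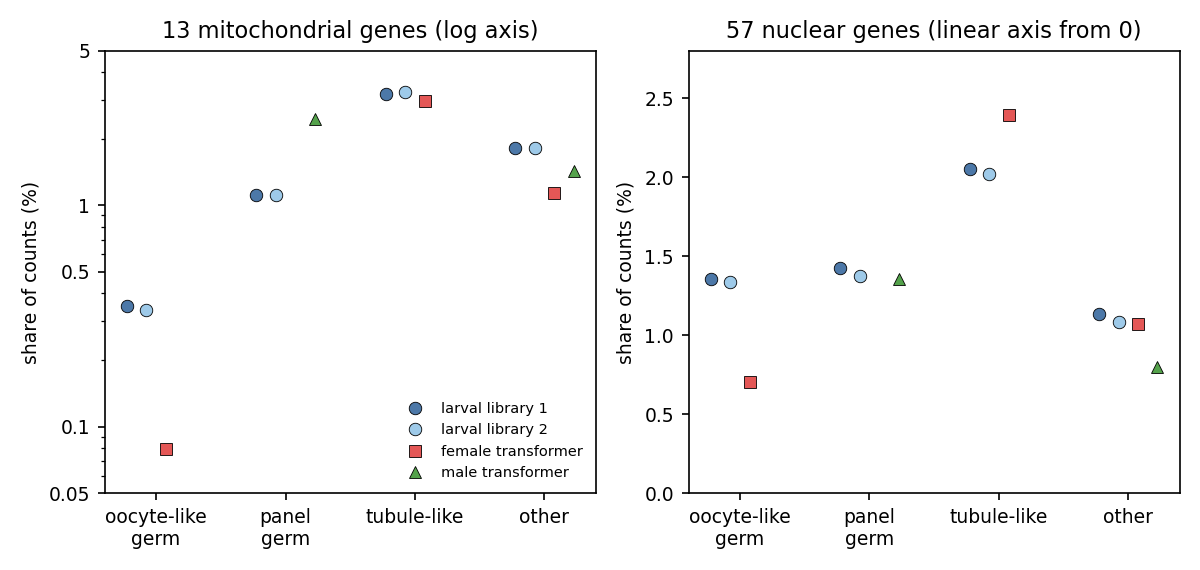
Share of the counts in named features taken by the 13 mitochondrial genes (left, log axis, percent) and the 57 nuclear genes (right, linear axis, percent) in each barcode class, 1 point per library. The mitochondrial share ran from 0.0795% in oocyte-like barcodes of the female to 3.27% in tubule-like barcodes of larval library 2, while the nuclear share ran from 0.703% to 2.39%.

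The nuclear members varied much less. Shares are relative: a lower share of these transcripts and a higher share of all others cannot be told apart. Their share was 1.36% and 1.34% in larval oocyte-like germ and 1.42% and 1.37% in larval panel germ, and 1.36% in male panel germ. It was 0.703% in oocyte-like germ of the female, 1.92-fold below the larval mean. Tubule-like barcodes were highest, at 2.05% and 2.02% in the larval pair and 2.39% in the female, 1.81-fold, 1.86-fold and 2.23-fold the share in other barcodes of the same library (exact sign-flip p = 0.25, n = 3, the smallest possible). Other barcodes had 1.13% and 1.09% in the larval pair, 1.07% in the female and 0.796% in the male. The ratio of mitochondrial to nuclear counts was therefore 0.260 and 0.252 in larval oocyte-like germ and 0.113 in that of the female, against 0.781 and 0.811 in larval panel germ and 1.82 in that of the male. In tubule-like barcodes it was 1.55, 1.62 and 1.24 (larval libraries 1 and 2, female), and in other barcodes 1.61, 1.67, 1.06 and 1.80 (with the male last). Summed over all depths, the ratio was thus similar, higher in tubule-like barcodes in 1 of 3 libraries, while the mitochondrial and the nuclear share were each higher there in 3 of 3. By counts per barcode the ratio was less alike. Under 5000 counts it was 1.57, 1.60 and 2.64 in tubule-like against 1.98, 2.14 and 0.840 in other barcodes (larva 1, larva 2, female). From 5000 to 10000 it was 2.46, 2.83 and 2.14 against 1.59, 1.74 and 1.10. From 10000 to 20000 it was 1.52, 1.61 and 1.18 against 1.49, 1.53 and 1.25, and over 20000 1.39, 1.42 and 0.928 against 1.42, 1.44 and 1.04.

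Per barcode, the median mitochondrial share was 0.347% and 0.336% in larval oocyte-like germ and 0.0434% in that of the female. Of these 560 female barcodes, whose median depth was 18379.5 counts, 24 had no mitochondrial count at all. The depth of those 24 was not worked out. The median share was 1.52% and 1.54% in larval panel germ (quartiles 0.774% and 2.08% in library 1) and 2.50% in that of the male (quartiles 2.07% and 3.02%). Barcodes ranked 40000 to 80000 by counts, most of them too shallow to be kept and so closer to free RNA than to cells, had 2.55% to 2.96%, above every germ class. The share moved with depth, so it was also read within ranges of counts per barcode. Among barcodes over 20000 counts, larval oocyte-like germ had 0.337% and 0.325% against 0.931% and 0.990% in larval panel germ, and among those under 5000 counts 0.713% and 0.598% against 2.22% and 2.69%. Oocyte-like germ of the female had 0.0695% over 20000 counts and 0.304% under 5000, below both larval libraries in each. Panel germ of the male had 2.14% over 20000 counts, above both larval libraries, but 2.29% against 1.83% and 1.76% from 10000 to 20000 counts, so the male excess was smaller where depth was matched below 20000. Tubule-like barcodes of the female had 5.04% under 5000 counts, above the larval 3.14% and 3.31%. From 5000 to 10000 counts they had 4.64%, between the larval 4.29% and 4.77%. The female was lower from 10000 to 20000 counts (2.87% against 3.18% and 3.28%) and over 20000 (2.28% against 2.82% and 2.92%).

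Within the 2 larval libraries, oocyte-like germ barcodes carried less of every mitochondrial transcript than panel germ barcodes of the same library. COX1, the catalytic subunit of complex IV, was at 837 and 784 CPM in oocyte-like germ and 3225 and 3156 CPM in panel germ (larval libraries 1 and 2). CYTB, the cytochrome b of complex III, was at 601 and 578 CPM against 1731 and 1790.1 CPM, and ATP6, part of the proton channel of complex V, at 586 and 571 CPM against 1538 and 1509 CPM. Both libraries were lower in oocyte-like germ for each of the 13 genes, and the classes did not overlap. In edgeR's quasi-likelihood test with the library as a block, all 13 fell, from log2 -0.80 ± 0.090 SE for ATP8 (adjusted p = 7.96e-06) to -1.59 ± 0.038 for COX1 (adjusted p = 2.75e-12), with a median of -1.27. The fit of 2 libraries had 1 residual degree of freedom, so its p-values lean on spread shared across genes. For the summed mitochondrial share, the exact sign-flip permutation test gave p = 0.5, the smallest that 2 libraries allow. Over the 17077 genes tested, 25% fell and 20.1% rose at a Benjamini-Hochberg adjusted p under 0.05, and the median was 0.0013. COX2 (-1.48), ND6 (-1.55), ND4L (-1.54) and ND5 (-1.44) lay near the COX1 end, and COX3 (-1.21), ND1 (-1.22), ND2 (-1.19), ND3 (-1.27), ND4 (-1.30), CYTB (-1.19) and ATP6 (-1.01) between. Vertebrate ATP8 and ATP6 overlap on the genome, as do ND4L and ND4, and ND6 lies on the opposite strand. How such reads were counted is not given in the sources used here, so these genes are less certain one by one.

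The nuclear members did not follow the mitochondrial ones. With TMM scaling 34 of 57 rose in oocyte-like germ and 7 fell (median log2 0.20), but scaled by library totals 9 rose and 35 fell (median -0.19), because that scaling moved the median of all genes to -0.39; the 13 mitochondrial genes fell under both. DESeq2 called 27 higher and 1 lower, 25 rose and 3 fell without the block, and with doubled germ thresholds 22 rose and 3 fell. NDUFB2, an accessory subunit of the membrane arm of complex I, was at 829 and 841 CPM in oocyte-like germ and 672 and 651 CPM in panel germ (log2 0.73 ± 0.034 SE, adjusted p = 2.79e-09). NDUFC1 (0.67 ± 0.039) and NDUFA2 (0.67 ± 0.038), accessory subunits of complex I, rose beside it, and the complex I subunits as a group had 25 of 34 higher and 2 lower, NDUFAB1 (-0.23 ± 0.072), the mitochondrial acyl carrier protein, and NDUFA3 (-0.17 ± 0.044). These complex I counts are with TMM scaling.

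Complex V had 8 of 9 nuclear subunits higher with TMM scaling, led by ATP5PO (0.41 ± 0.084), which joins the catalytic head to the stalk, and ATP5PF (0.31 ± 0.034) and ATP5PB (0.22 ± 0.035) of the stalk, although the last 2 turned negative with library totals (-0.086 and -0.17). ATP5F1D, the delta subunit of the central stalk, went the other way, at 14.2 and 15.3 CPM in oocyte-like germ against 39.5 and 35.3 CPM in panel germ (log2 -0.95 ± 0.077 SE, adjusted p = 3.93e-07). Complex II was split: SDHD, a membrane anchor, rose by 0.15 ± 0.037 with TMM but was at -0.24 with library totals, SDHA, the flavoprotein that oxidises succinate, fell (-0.19 ± 0.047), and SDHC did not pass. Among assembly factors, NDUFAF5 (-0.41 ± 0.15) and NDUFAF7 (-0.41 ± 0.13), enzymes that modify arginines of complex I subunits, and SDHAF3 (-0.57 ± 0.15), which helps to mature the iron-sulfur subunit, fell, and 0 of 11 rose by edgeR. Of the 12 features listed by number, 6 rose and 1 fell; COX4I1 of complex IV rose by 0.50 ± 0.035 and UQCRC2 of complex III fell (-0.29 ± 0.065).

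Lists of neighbouring pathways, chosen like the members with earlier results known, gave these counts in the same comparison. Of 11 genes of mitochondrial transcription and replication found, 1 rose and 5 fell with TMM, among the latter TWNK (-0.94 ± 0.13), the replicative helicase, and POLG (-0.73 ± 0.15), the DNA polymerase. Of 14 citrate cycle genes 8 rose and 3 fell, with SUCLG1 at 0.69 ± 0.036. Of 33 assembly and electron carrier genes 17 rose and 4 fell, and of 5 glycolysis genes found, 1 rose and 1 fell. The list medians were log2 -0.24, 0.26, 0.26 and 0.046 in that order.

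Tubule-like barcodes carried more of the nuclear members than other barcodes of the same library, and of 3 mitochondrial genes. SDHC, a membrane anchor of complex II, was at 873 CPM (larva 1), 801 CPM (larva 2) and 542 CPM (female) in tubule-like barcodes, and at 279.8, 250.1 and 175 CPM in other barcodes of the same libraries. All 3 tubule-like values lay above all values in other barcodes. NDUFB6, an accessory subunit of complex I, was at 75.7 and 88.7 CPM in the larval pair and 94.9 CPM in the female, against 18.2 and 18.5 and 30.1 CPM in other barcodes, again without overlap. Of the 57 nuclear members, 33 rose and 0 fell (edgeR with the library as a block, 3 libraries; median log2 0.77), against 12.8% higher and 11.4% lower among the 17975 genes tested, whose median was -0.0032. DESeq2 called 40 higher and 0 lower, where 2604 and 2338 of all 17975 genes were. An unadjusted edgeR p under 0.05 in either direction was reached by 43, and by 6820 of all genes. The edgeR count rested on the set of libraries and on the block. Without larval library 1 it was 3 higher, where 917 of all 18039 genes were higher. Without larval library 2 it was 3 higher, where 832 of 17948 genes were. Without the female 49 were higher and 1 lower, where 4611 and 4504 of 17951 genes were. Without the block 8 were higher, where 939 of 17975 genes were. The median tubule-like barcode had 13397 to 14921.5 counts and the median other barcode 4252.5 to 5334 in these libraries; the part of depth in the gene counts was not tested.

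All 3 complex II subunits rose, SDHC by 1.48 ± 0.17 (adjusted p = 0.00555), SDHD by 1.32 ± 0.19 and SDHA by 1.25 ± 0.26, and so did SDHAF2 (1.70 ± 0.18), which attaches the flavin to SDHA. In complex I 25 of 34 subunits rose, led by NDUFB6 (log2 1.82 ± 0.21 SE, adjusted p = 0.00564), NDUFA3 (1.51 ± 0.17) and NDUFAB1 (1.49 ± 0.16). Of 7 complex I assembly factors 1 rose, NDUFAF1 (0.81 ± 0.18), a chaperone of the membrane arm. In complex V 3 of 9 rose, ATP5F1D (1.18 ± 0.20), ATP5PD (1.02 ± 0.17), a stalk subunit, and ATP5MPL (0.77 ± 0.17), a small membrane subunit. Of the 11 complex III and IV features listed by number 8 rose, led by COX7C (1.14 ± 0.17), UQCRB (0.97 ± 0.19) and COX4I1 (0.97 ± 0.19). The mitochondrial genes moved less evenly: COX1 (1.14 ± 0.18), COX2 (0.92 ± 0.19) and COX3 (0.75 ± 0.18), the 3 core subunits of complex IV, rose, and the other 10 did not pass (median of 13, 0.36). DESeq2 called 5 higher, and without the block 1 passed. COX1 was at 13410.4 and 13464 CPM in larval tubule-like barcodes against 5565 and 5368 CPM in other barcodes, and at 8402 against 3299 CPM in the female. With larval library 1 or larval library 2 left out no mitochondrial gene passed, and without the female 6 rose and 6 fell. ND1 was an example of the split, at 533 and 649 CPM in larval tubule-like and 629 and 739 CPM in larval other barcodes, but 1086 against 380.2 CPM in the female. ND1 was lower in tubule-like barcodes of both larval libraries and higher in those of the female.

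**Figure D2:**
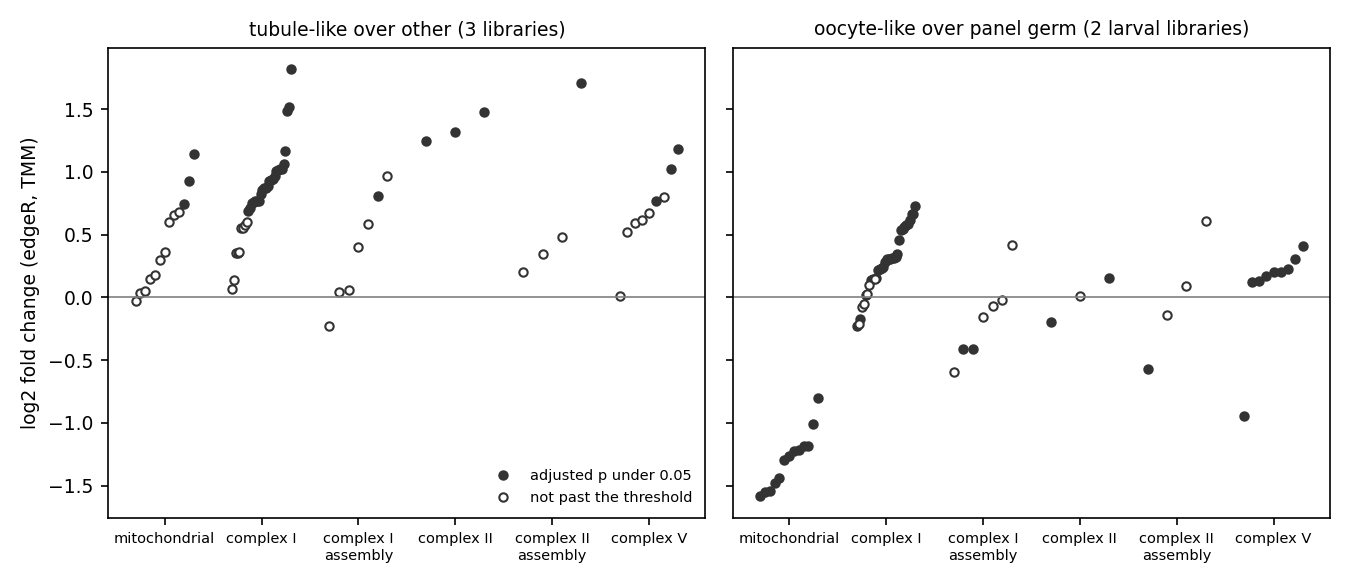
log2 fold change of each member in edgeR's test, 1 point per gene, ordered by size within its group: tubule-like over other barcodes (left) and oocyte-like over panel germ barcodes of the larval libraries (right). Filled points have an adjusted p under 0.05. In the left panel 33 of 57 nuclear members passed, all above 0, and in the right panel all 13 mitochondrial genes passed below 0; the nuclear points of the right panel shift down with library totals in place of TMM.

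The neighbouring pathways gave these counts for tubule-like against other barcodes. Of 14 citrate cycle genes 10 rose and 0 fell by edgeR, IDH3A (2.71 ± 0.28), a subunit of isocitrate dehydrogenase, SUCLG2 (1.57 ± 0.16) and FH (1.27 ± 0.18), the fumarase, among them. Of 33 assembly and carrier genes 14 rose, led by FOXRED1 (2.57 ± 0.17), a complex I assembly factor. Of 11 transcription and replication genes 2 rose, TEFM (0.85 ± 0.15), an elongation factor, and TFB2M (0.79 ± 0.16), a transcription factor, and 1 fell, TFAM (-0.62 ± 0.15), which packages mitochondrial DNA. Of 5 glycolysis genes 2 rose, TPI1 (1.57 ± 0.17) and PFKP (1.10 ± 0.20). The glycolysis list was found for 5 of 23 genes only.

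Germ barcodes as 1 class were not uniform across libraries, since the female's were nearly all oocyte-like and the male's nearly all panel germ. Against other barcodes of the same library, the mitochondrial share was 2.32-fold and 2.31-fold lower in larval germ, 12.8-fold lower in germ of the female and 1.71-fold higher in germ of the male (mean log2 -1.33 ± 1.83 SD, n = 4; exact sign-flip p = 0.25, not the smallest p possible with 4); among barcodes under 5000 counts the mean turned to 0.10. No mitochondrial gene passed edgeR's test over the 4 libraries, although all 13 estimates were negative (median log2 -1.33); 1 passed at an unadjusted p under 0.05 (CYTB, -1.95 ± 0.74), while DESeq2 put 4 lower. Of the nuclear members 2 rose and 0 fell, against 9.45% higher and 9.35% lower among 18192 genes. DESeq2 called 3 nuclear members higher and 2 lower, where 3885 and 3342 of those genes were. An unadjusted p under 0.05 in edgeR was reached by 3 nuclear members, and by 6532 of all genes. NDUFAF1 was at 81.4 CPM (larva 1), 79.3 CPM (larva 2), 45.7 CPM (female) and 55.7 CPM (male) in germ, against 22.9, 23.1, 17.0 and 21.6 CPM in other barcodes (log2 1.26 ± 0.24 SE, adjusted p = 0.0224). SDHAF1, which helps to insert the iron-sulfur clusters of complex II, was at 26.6 CPM (larva 1), 26.9 CPM (larva 2), 50.7 CPM (female) and 51.3 CPM (male) in germ, against 13.6, 12.8, 14.8 and 10.8 CPM (log2 1.18 ± 0.28 SE, adjusted p = 0.0396). For both genes every germ value lay above every value in other barcodes. Neither call held without larval library 1 or without larval library 2, where no nuclear member passed. Over all genes 427 were higher and 519 lower without larval library 1, and 401 and 503 without larval library 2. Without the male 1 nuclear member rose, where 1464 of 18323 genes were higher and 1650 lower. Without the block 1 rose (1671 and 1488 of 18192 genes), and without the female 3 (2606 and 2161 of 18354 genes).

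Between the stages, the germ classes were compared one at a time, an analysis chosen after the pooled germ result had been seen. Oocyte-like germ of the female transformer carried less of all 13 mitochondrial transcripts than that of the larvae. COX3, a core subunit of complex IV, was at 796 CPM (larva 1), 710.0 CPM (larva 2) and 107 CPM (female). ND3, a membrane-arm subunit of complex I, was at 44.1 CPM (larva 1), 50.5 CPM (larva 2) and 3.26 CPM (female), and ND4, a proton-pumping subunit, at 161 CPM (larva 1), 148 CPM (larva 2) and 66.4 CPM (female). The female value was below both larval values for each of the 13. In the same barcodes 11 genes next to NPRL3 summed to 692 CPM (larva 1), 563 CPM (larva 2) and 8903 CPM (female). Without barcodes holding 5% or more of their counts in these genes, the median log2 of the 13 was -2.18 and that of the nuclear members -0.47. The part of the NPRL3 neighbours in the barcodes left was not tested. In edgeR with 2 larval libraries against the female all 13 passed below 0, from log2 -1.01 ± 0.12 SE for ND4 to -3.64 ± 0.20 for ND3, median -2.12. The spread in this fit comes from the larval pair alone (biological coefficient of variation 0.0813, against 0.508 in the fit of pooled germ to both transformers). The female is taken to vary like the larvae, so rose and fell, here and in the other comparisons with 1 transformer, speak of the library and not of the stage, and no p is printed for them. Over all 16735 genes 30.1% were higher and 26.3% lower, with a median of -0.091. Of the nuclear members 32 fell and 8 rose (median -0.45; 41 and 5 with library totals). NDUFV1, the complex I subunit that binds NADH, was at 253 CPM (larva 1), 244 CPM (larva 2) and 44.4 CPM (female) (log2 -2.27 ± 0.13 SE), and NDUFB10 fell by 1.58 and NDUFS6 by 1.73, the last from 0.983 and 1.54 CPM to 0.326 CPM, or 5 counts.

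Other complexes in oocyte-like germ of the female moved as follows. SDHD (-1.04 ± 0.12) and SDHA (-0.34 ± 0.13) of complex II fell, and 5 of 9 complex V subunits fell, led by ATP5PF (-1.09 ± 0.12), ATP5PB (-0.89 ± 0.12) and ATP5PD (-0.89 ± 0.12), with none called higher by edgeR. The genes that rose included NDUFA3, at 105 CPM (larva 1), 105 CPM (larva 2) and 173 CPM (female) (0.94 ± 0.11), NDUFB7 (0.53 ± 0.11) and NDUFB9 (0.37 ± 0.11), accessory subunits of complex I. They also included assembly factors: NDUFAF4, which works with NDUFAF3 early in complex I assembly, was at 1.68 CPM (larva 1), 2.58 CPM (larva 2) and 11.0 CPM (female) (log2 2.57 ± 0.22 SE), and NDUFAF7 (1.56 ± 0.19), NDUFAF5 (0.77 ± 0.25) and SDHAF1 (1.32 ± 0.13) rose as well. NDUFAF3 (-0.47 ± 0.17) and NDUFAF1 (-0.36 ± 0.13) fell, and so did NDUFAF2, for which no fold is given since it rests on 1 count in the female against 13 and 18 counts in the larval libraries. Of the 12 features listed by number 10 fell and 1 rose; COX5A of complex IV was at 405 CPM (larva 1), 349.5 CPM (larva 2) and 88.2 CPM (female) (-1.88 ± 0.13). Genes of mitochondrial transcription and replication had 7 of 11 higher and 2 lower, TFB2M at 2.15 ± 0.20 and SSBP1 at -1.49 ± 0.13, and citrate cycle genes 2 of 14 higher and 7 lower. The summed share of the 11 genes went the other way, 0.0316% (larva 1) and 0.0354% (larva 2) against 0.0243% (female). The larval pair is 2 libraries, so leaving 1 out left 1 against 1 and no test.

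Panel germ of the male transformer carried more of all 13 mitochondrial transcripts than larval panel germ. ND5, a proton-pumping subunit of complex I, was at 124 CPM (larva 1), 123 CPM (larva 2) and 386 CPM (male). ND3 was at 137 CPM (larva 1), 161 CPM (larva 2) and 805 CPM (male), and COX2, which takes electrons from cytochrome c, at 782 CPM (larva 1), 847 CPM (larva 2) and 2391 CPM (male). The male value was above both larval values for each of the 13. Barcodes ranked 40000 to 80000 by counts, closer to free RNA, held 877 CPM of the germ panel in the male. The larval libraries had 247 CPM (larva 1) and 239 CPM (larva 2) there. The male level lay above the 500 CPM minimum of the class, and the larval levels below it. The mitochondrial share of these barcodes was 2.96% (male), 2.55% (larva 1) and 2.71% (larva 2). The part of free RNA in panel germ of the male was not tested. The median panel germ barcode had 17079 and 20258.5 counts in the larval pair and 8032.5 in the male, and the mitochondrial shares of the stages were nearer to each other at matched depths under 20000 counts, as given above. All 13 passed above 0 in edgeR (2 larval libraries against the male, taken to vary like the larvae, whose pair alone gives the spread; coefficient of variation 0.0709), from log2 0.86 ± 0.11 SE for ATP8 to 2.94 ± 0.10 for ND3, median 1.97; with library totals all 13 still rose (median 1.46). Over all 17850 genes 32.5% were higher and 29.9% lower (median -0.055). The nuclear members depended on the scaling: 31 rose and 12 fell with TMM (median 0.42), and 15 rose and 25 fell with library totals, which moved the median of all genes to -0.57. With TMM the largest rises were NDUFAF3 (1.82 ± 0.10), NDUFB5 (1.57 ± 0.10) and NDUFS6 (1.45 ± 0.18). NDUFB5 was at 379 CPM (larva 1), 342 CPM (larva 2) and 746 CPM (male) and NDUFAF3 at 32.2 CPM (larva 1), 27.0 CPM (larva 2) and 73.1 CPM (male), so that the male lay above both larval libraries on the CPM scale too. NDUFV1 fell, from 228 and 199 CPM in larvae to 44.1 CPM (log2 -1.76 ± 0.10 SE), as did NDUFS3 (-0.72 ± 0.14) and NDUFV2 (-0.63 ± 0.10), core subunits of the matrix arm of complex I.

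In complex V of panel germ, ATP5MPL (0.95 ± 0.10), ATP5PF (0.81 ± 0.10) and ATP5PD (0.80 ± 0.10) rose, and ATP5F1B (-0.52 ± 0.10), the catalytic beta subunit, ATP5F1E (-0.52 ± 0.11) and ATP5PO (-0.53 ± 0.12) fell. ATP5F1B was at 638 CPM (larva 1), 576 CPM (larva 2) and 296 CPM (male). SDHA (-0.51 ± 0.11) and SDHD (-0.51 ± 0.10) fell, while 3 of the 4 complex II assembly factors rose with TMM, led by SDHAF1 (1.33 ± 0.11). Among complex I assembly factors NDUFAF5 (1.31 ± 0.14) and NDUFAF4 (0.78 ± 0.17) also rose and NDUFAF2 (-1.08 ± 0.27) fell. Of the 12 features listed by number 6 rose and 5 fell: UQCR11 of complex III was at 367 CPM (larva 1), 354 CPM (larva 2) and 846 CPM (male) (1.75 ± 0.10), and NDUFC2 at 235 CPM (larva 1), 211 CPM (larva 2) and 56.6 CPM (male) (-1.46 ± 0.10). Of 11 transcription and replication genes 10 rose, POLG (1.66 ± 0.13), POLG2 (1.15 ± 0.15), TFAM (1.10 ± 0.10) and LRPPRC (0.97 ± 0.10), which stabilises mitochondrial mRNA, among them, although their summed share was 0.0397% (larva 1), 0.0402% (larva 2) and 0.0382% (male). Of 14 citrate cycle genes 4 rose and 8 fell. Both stage comparisons in germ cells use the same larval libraries, and the female and male germ classes differ in kind, so the opposite directions of the mitochondrial genes are not a comparison of the sexes within 1 class.

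**Figure D3:**
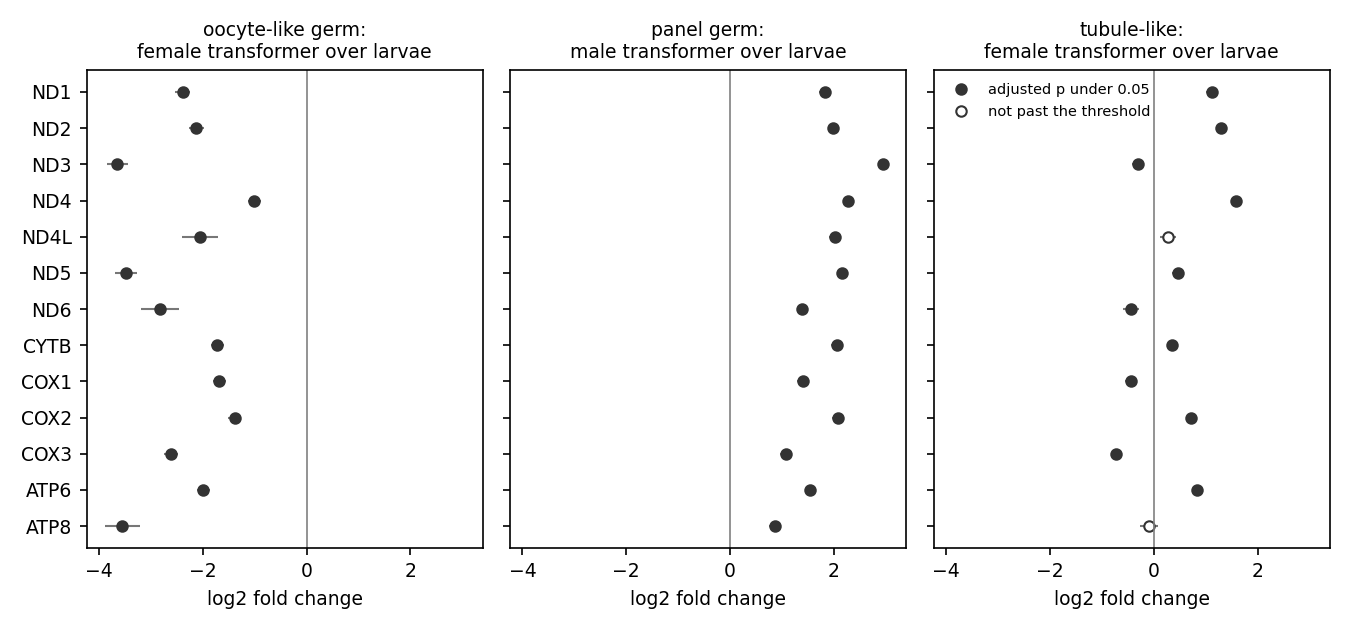
log2 fold change of the 13 mitochondrial genes, transformer over larvae, in edgeR's test within 3 barcode classes; bars are ± 1 SE and filled points have an adjusted p under 0.05. All 13 lie below 0 in oocyte-like germ of the female and above 0 in panel germ of the male, and in tubule-like barcodes of the female 7 passed above and 4 below 0.

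When all germ barcodes were pooled and the 2 larval libraries set against both transformers, no gene of 18015 passed (0% higher and 0% lower), members included. At an unadjusted p under 0.05 edgeR gave 3 nuclear members and 0 mitochondrial ones, and 2731 of all 18015 genes. With adjustment DESeq2 gave 1 nuclear member, lower, and no mitochondrial one, where 353 of all genes were higher and 281 lower. The mitochondrial estimates had standard errors of 1.498 to 2.22 on the log2 scale, and in simulated counts of this design 3% of genes changed by log2 2 were recovered. With larval library 1 or larval library 2 left out the count was also 0. Without the female library the median log2 was 2.32 for mitochondrial genes, 0.31 for nuclear members and -0.065 for all genes. Without the male library these medians were -3.01, -0.36 and -0.11. All 13 mitochondrial estimates were above 0 without the female and below 0 without the male. Each of these fits has 1 transformer library. NDUFV1, the nuclear member with the lowest unadjusted p, was at 239 CPM (larva 1), 218 CPM (larva 2), 44.6 CPM (female) and 44.1 CPM (male) (log2 -1.96 ± 0.32, adjusted p = 0.275), with both transformers below both larval libraries.

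In tubule-like barcodes summed over all depths, the female transformer carried more of most nuclear members than the larvae, and the mitochondrial genes split. Under 5000 counts per barcode the nuclear share was lower in the female (1.91% against 2.01% and 2.06% in the larval pair). In each range from 5000 counts up it was above both larval libraries. ATP5F1D was at 50.5 CPM (larva 1), 54.6 CPM (larva 2) and 196 CPM (female), and ATP5F1B at 1066 CPM (larva 1), 1011 CPM (larva 2) and 1817 CPM (female). NDUFS8, an iron-sulfur subunit of complex I, was at 559 CPM (larva 1), 533 CPM (larva 2) and 988 CPM (female). The female was above both larval libraries for all 3. The fit is again of 2 larval libraries against 1, which is taken to vary like the larvae, and the larval pair alone gives the spread (coefficient of variation 0.0843). Of 56 nuclear members tested, 35 rose and 5 fell (median log2 0.47; 26 and 10 with library totals), where 28.7% of the 14424 genes were higher and 23.7% lower (median -0.028). The largest rises were NDUFAF4 (log2 3.25 ± 0.22 SE), ATP5F1D (2.13 ± 0.11) and NDUFAF3 (2.05 ± 0.15), followed in complex I by NDUFS4 (1.10 ± 0.10), NDUFS8 (1.09 ± 0.10) and NDUFB4 (0.98 ± 0.11). Complex II split: SDHA rose from 139 and 116 CPM to 227 CPM (1.07 ± 0.10), and its membrane anchors SDHD (-0.79 ± 0.11) and SDHC (-0.39 ± 0.11) fell. NDUFA7 (-0.74 ± 0.11) and NDUFAF1 (-0.52 ± 0.13) also fell. Of the 11 complex III and IV features listed by number 10 rose, UQCRC2 by 1.31 ± 0.11, COX5B by 0.81 ± 0.10 and COX6C by 0.80 ± 0.10.

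Among the mitochondrial genes of tubule-like barcodes, ND4 was at 1109 CPM (larva 1), 1102 CPM (larva 2) and 2821 CPM (female), and COX1 at 13410.4 CPM (larva 1), 13464 CPM (larva 2) and 8402 CPM (female). COX3 was at 5784 CPM (larva 1), 5766 CPM (larva 2) and 2978 CPM (female). The female was above both larval libraries for ND4 and below both for COX1 and COX3. The 7 that rose were ND4 (log2 1.59 ± 0.10 SE), ND2 (1.30 ± 0.10), ND1 (1.11 ± 0.10), ATP6 (0.84 ± 0.10), COX2 (0.72 ± 0.10), ND5 (0.46 ± 0.11) and CYTB (0.35 ± 0.10), and the 4 that fell were COX3 (log2 -0.72 ± 0.11 SE), COX1 (-0.44 ± 0.11), ND6 (-0.43 ± 0.16) and ND3 (-0.31 ± 0.11). With library totals 5 rose and 4 fell. Of 11 transcription and replication genes 8 rose and none fell by edgeR, LRPPRC by 2.52 ± 0.12 and TFB2M by 1.48 ± 0.18, and of 14 citrate cycle genes 9 rose and none fell. Markers of other cells in the class also differed: germ markers summed to 63.6 and 61.6 CPM in the larval pair and 36.0 CPM in the female. Genes next to NPRL3 summed to 2788, 2155 and 6751 CPM. The median log2 was 0.47 for nuclear members and 0.35 for mitochondrial genes. Without barcodes holding 5% or more of their counts in NPRL3 neighbours the medians were 0.47 and 0.36. With a doubled MIOX minimum they were 0.48 and 0.24. The barcodes closer to free RNA held 2066.8 CPM of MIOX in the female, 811 CPM in larva 1 and 714 CPM in larva 2. The female level lay above the 2000 CPM minimum of the class, and the larval levels below it. The median tubule-like barcode had 5545 CPM of MIOX in the female, 11935 CPM in larva 1 and 12637 CPM in larva 2. The part of germ markers, of free RNA with MIOX in the female, and of NPRL3 neighbours in the barcodes left was not tested.

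Among other barcodes both larval libraries were set against both transformers, and the share of members called was close to that over all genes. NDUFAF3, a complex I assembly factor, was at 8.09 CPM (larva 1), 7.89 CPM (larva 2), 22.0 CPM (female) and 24.4 CPM (male). NDUFS8 was at 322 CPM (larva 1), 286 CPM (larva 2), 461 CPM (female) and 347 CPM (male), and ND4 at 783 CPM (larva 1), 746 CPM (larva 2), 1058 CPM (female) and 1003 CPM (male). Both transformers were above both larval libraries for these 3 genes. Of 57 nuclear members 3 rose and 0 fell, NDUFAF3 (log2 2.10 ± 0.20 SE, adjusted p = 0.0275), NDUFS8 (0.96 ± 0.17) and NDUFA2 (0.82 ± 0.15), where 6.61% of 18430 genes were higher and 4.93% lower. Of the mitochondrial genes 1 rose, ND4 (log2 0.99 ± 0.18 SE, adjusted p = 0.0465), and 0 fell. At an unadjusted p under 0.05 there were 15 nuclear members and 1 mitochondrial one, and 5883 of all 18430 genes. DESeq2 called 9 nuclear members and 1 mitochondrial gene higher and 0 lower, where 2260 of all genes were higher and 1520 lower. Without larval library 1, and likewise without larval library 2, none of these calls held, and no other gene passed either. The spread then came from the female and male libraries alone. Without the female the median log2 was 0.050 for nuclear members, 0.50 for mitochondrial genes and -0.067 for all genes. Without the male these medians were 0.42, -0.40 and -0.041. Each of these fits has 1 transformer library. With library totals 1 nuclear member was higher, 2 were lower and no mitochondrial gene passed (NDUFAF3 was then at 1.54 and ND4 at 0.43). That scaling moved the median of all genes to log2 -0.53, with 282 genes higher and 2749 lower. The make-up of the class moved with the stage: 11 genes next to NPRL3 summed to 18449.9 and 22822 CPM in the larval pair, 126737 CPM in the female and 53052.5 CPM in the male, and 4 stromal markers to 1007, 917, 244 and 146 CPM. Without barcodes holding 5% or more of their counts in the NPRL3 neighbours, 1 nuclear member and 1 mitochondrial gene rose and 0 fell. Over all 18315 genes 996 were higher and 781 lower there. The part of the stromal markers, and of the NPRL3 neighbours in the barcodes left, was not tested. Of 11 transcription and replication genes 5 rose, POLG (1.58 ± 0.16), LRPPRC (1.27 ± 0.23), TFB2M (1.04 ± 0.19) and NRF1 (0.89 ± 0.16) among them, with summed shares of 0.0163%, 0.0160%, 0.0158% and 0.0140% (larva 1, larva 2, female, male), and no citrate cycle, glycolysis or numbered feature passed edgeR's test.

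The make-up of the mitochondrial counts separated the stages in every class for 3 of the 13 genes. Within the 13-gene total of a library and class, COX3 held 17.7% to 22.6% over all larval values (2 libraries, 4 classes) and 10.01% to 13.6% over all transformer values (female oocyte-like, tubule-like and other, male panel germ and other). COX2 held 6.15% to 7.61% in larvae and 8.84% to 10.7% in transformers, and ND4 3.38% to 4.58% and 6.83% to 9.48%. For these 3 of 13 genes the ranges did not overlap, COX3 being lower and COX2 and ND4 higher in both transformers, and for the other 10 they did. COX1 depended on the class in the larval libraries, from 23.3% in oocyte-like germ to 42.2% in tubule-like barcodes. It varied little in the transformers, at 27.5% to 29.0% over the 3 classes of the female and 23.9% to 25.6% over the 2 classes of the male. ND3 differed between the female and the male library: it held 0.276% to 0.411% in the 3 classes of the female and 2.795% to 3.27% in the 2 classes of the male, and from 0.355% to 1.502% over the larval values, which overlap those of the female. In each class that both had, the female value was below both larval values. In the barcodes closer to free RNA ND3 held 0.637% and 0.821% in the larval pair, 0.313% in the female and 2.92% in the male. An exact permutation test of 2 libraries against 2 cannot reach a p under 0.05, and the classes of a library are not replicates, so these ranges are a description. Library and stage cannot be told apart in this design.

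**Figure D4:**
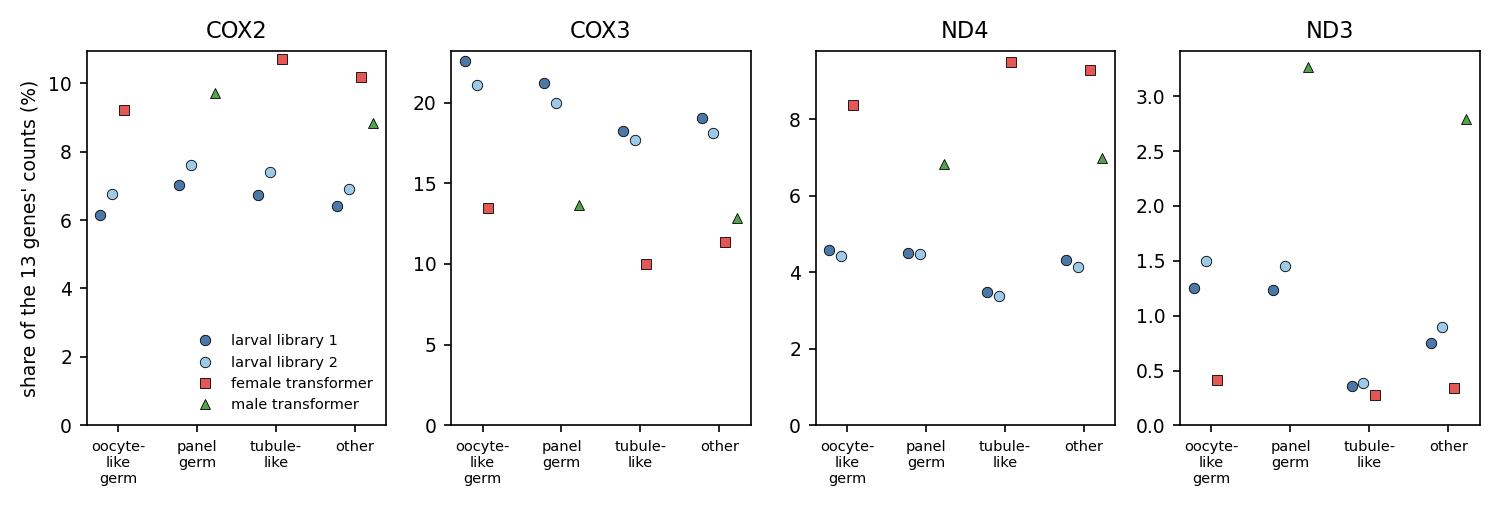
Share of the summed counts of the 13 mitochondrial genes (percent, axes from 0) held by COX2, COX3, ND4 and ND3, 1 point per library and barcode class. Transformers lie above larvae for COX2 and ND4 and below them for COX3 in every class shown, and for ND3 the male lies above and the female below the larval points of the same class.

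Female and male transformers were set side by side without a test, as 1 library each. In other barcodes 54 nuclear members had at least 20 counts in both libraries. By library totals 47 of them were higher in the female (median log2 0.46), and by TMM 42 (median 0.24). The share of all genes higher in the female was not worked out, so these counts do not set the members apart from other genes. The largest differences among nuclear members were SDHA at 49.7 against 16.3 CPM and ATP5F1E at 36.3 against 12.4 CPM. ATP5F1D was at 53.97 against 19.5 CPM. The 13 mitochondrial genes had a median below 0 (log2 -0.51), ND3 at 39.1 against 402 CPM and ND5 at 40.4 against 109 CPM. Markers of other cells moved with the libraries: the 5 tubule markers summed to 311 CPM in the female and 30.0 CPM in the male, which has no tubule-like class, and the 11 genes next to NPRL3 to 126737 and 53052.5 CPM; of the female's barcodes 720 lay near the MIOX threshold. Their part in the difference was not tested. The larval pair differed far less, with a median absolute log2 ratio of 0.083 over the nuclear and 0.074 over the mitochondrial genes. In germ barcodes, where the female's class is oocyte-like and the male's is panel germ, the 10 mitochondrial genes with 20 counts in both had a median of -4.88, ND3 reaching 3.83 CPM in the female and 804 CPM in the male (log2 -7.70). Of 53 nuclear members 11 were higher in the female by library totals (median -0.66) and 12 by TMM (median -0.63), again without the share over all genes.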

How the data were processed

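Single-cell 3′ RNA-seq was measured in 4 gonad libraries. The authors deposited 1 matrix of whole-number counts per library, features by barcodes; the values are raw counts with no normalization. Aligner, counter, genome build and annotation: not given in the sources used here. Left out of totals and tests were 24 features with a number in place of a name; what they are was not determined, and they held between 2.53% and 4.89% of the counts in kept barcodes. A gene table of the assembly UKy_Petmar_22M1.pri1.0 gave symbols to features listed by LOC number.

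Counts were summed per library and class. Classes were set from marker genes that are no members. Features were tested with edgeR 4.0.16 (R 4.3.3; TMM, filterByExpr, quasi-likelihood test, Benjamini-Hochberg adjustment over all features tested, threshold 0.05). The 3 comparisons within libraries have the library as a block, since both classes come from the same library. Stage comparisons have no block. The standard error is approximate and comes from the fold change and edgeR's F statistic (log2 fold change over root F). DESeq2 1.42.0, library totals, no filter, other thresholds, removal of likely doublets and leaving out each library were the alternatives. Shares are percent of the counts in named features, and their contrasts were tested by exact sign-flip permutation over libraries, two-sided, whose smallest p is 0.25 with 3 libraries and 0.5 with 2. Python 3.11.15, scanpy 1.11.5, numpy 2.4.6, scipy 1.17.1 and pandas 2.3.3 were used.

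Scrublet's automatic threshold marked 0% of barcodes in 3 libraries and 5.18% in the female, so no doublets were removed from the main values; the alternative removed the top 5% by score. In each test, 200 genes of simulated counts were changed by log2 2. The simulated spread was the one fitted in the same comparison. For stage in tubule-like barcodes, oocyte-like germ and panel germ it came from the larval pair alone. Recovery in these thus assumes that the transformer varies like the larvae. Between 0 and 11 unchanged genes were called per comparison. The share recovered was 78.5% for stage in other barcodes, 3% for stage in pooled germ, 92% for stage in tubule-like barcodes, 83.5% for germ against other, 92.5% for tubule-like against other, 95.5% for oocyte-like against panel germ, 87% for stage in oocyte-like germ and 98% for stage in panel germ. Intervals on counts would cover counting error only; the p-values measure the spread between libraries, which for each sex is 1 library.

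Genes named in the text are the 13 mitochondrial members and, per comparison and nuclear group, up to 3 called members with the largest absolute log2 fold change in each direction; for the neighbouring lists, at most the 4 largest called; for female against male, the 5 largest. Class markers are named only to describe the classes. The members and lists were chosen with earlier results of these data known.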

Additional observations from a re-analysis of the deposited data

Results flagged for a closer look

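For the mitochondrial share, the nuclear share and their ratio, 7 class contrasts of a transformer lay on the other side of 0 from both larval libraries; none of these differences was tested, since each sex is 1 library. The mitochondrial share of germ over other barcodes was log2 0.78 in the male transformer, against -1.21 and -1.21 in the larval libraries, and that of panel germ over other barcodes was 0.78, against -0.71 and -0.70. The nuclear share of germ over other barcodes was -0.60 in the female transformer, against 0.30 and 0.32 in the larval libraries, and that of oocyte-like germ over other barcodes was -0.61, against 0.26 and 0.30. The log2 ratio of mitochondrial to nuclear counts, germ over other, was 0.00895 in the male, against -1.52 and -1.53, and for panel germ over other it was 0.00970, against -1.04 and -1.04; both male values are close to 0. For tubule-like over other barcodes the ratio was 0.23 in the female, against -0.055 and -0.042.

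The 24 features with a number in place of a name held 4.36% and 4.68% of the counts of kept barcodes in the larval libraries, 2.53% in the female and 4.89% in the male. They belong to no comparison, and which genes they are was not determined.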

How the results depend on the processing

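Among the values that answer a comparison, 190 recomputed values were counted as kept, 56 as moved and 5 as reversed. For counts of members called, only the total was compared and not the direction. In oocyte-like against panel germ, 34 nuclear members higher and 7 lower became 9 and 35 with library totals and were counted as kept. In stage among other barcodes, 3 and 0 became 1 and 2 and were also counted as kept. Of the named genes' values 731 kept their direction and side of the threshold, 87 no longer passed and 3 reversed. The cause was not tested unless the alternative itself gives it (fewer libraries or barcodes). In stage calls among other barcodes, 3 nuclear and 1 mitochondrial member became 1 and 0 with a doubled count minimum or a doubled MIOX minimum. The nuclear calls became 1 without barcodes rich in genes next to NPRL3 and 9 with DESeq2. The mitochondrial calls became 0 with library totals. Without 1 larval library no call was left, and the fits without 1 transformer are given above as medians. In pooled germ by stage, 0 became 1 nuclear with DESeq2, and leaving out 1 library gave 0 to 45 nuclear and 0 to 13 mitochondrial; oocyte-like barcodes alone gave 40 and 13, and panel germ alone 43 and 13, both chosen after seeing the data. In germ against other, 2 nuclear calls became 5 with DESeq2 (and 4 mitochondrial), 1 with no replicate block and 0 to 3 without a library. In tubule-like against other, DESeq2 gave 5 mitochondrial calls, no replicate block 8 nuclear and 1 mitochondrial, and leaving out a library 3 to 50 and 0 to 12. In oocyte-like against panel germ, doubled germ thresholds gave 25 nuclear calls, and SDHD (-0.24), ATP5PF (-0.086) and ATP5PB (-0.17) reversed with library totals. The stage comparisons were not paired, since no larval library is labelled as the partner of a transformer library.

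The mitochondrial share of oocyte-like over panel germ, log2 -1.69, was -1.88 with doubled germ thresholds, -2.17 as a median over barcodes, and -1.90, -1.33, -1.21 and -1.54 in depth ranges from 0, 5000, 10000 and 20000 counts, the ranges being added after seeing the data. The nuclear share of the same contrast, -0.053, was -0.093 with doubled germ thresholds, 0.013 as a median, 0.24, 0.088 and 0.12 from 0, 5000 and 10000 counts, and -0.023 with the numbered features in the totals. For tubule-like over other, the mitochondrial share (1.01) was 1.55 as a median, 1.44 from 0 and 1.64 from 5000 counts, and the nuclear share (0.97) 1.18 as a median, 1.14 from 0 and 0.77 from 10000. The mitochondrial share of germ over other (-1.33) reversed to 0.10 under 5000 counts. With TMM the female over male nuclear medians were -0.63 in germ and 0.24 in other barcodes. Each sex is 1 library, and members with few counts in a class have wide errors.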
